A study of Mus musculus with 19 samples.

Results

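Replication licensing genes encode the proteins that mark replication origins in G1 phase and open them in S phase. The 10 genes described here are Mcm2, Mcm3, Mcm4, Mcm5, Mcm6, Mcm7, Cdc6, Cdt1, Pcna and Gins2. They were chosen by symbol as a read of S-phase activity, and all 10 were listed among the 14246 genes with counts in all 3 cell sets of a mouse bone-marrow RNA-seq series (16842 genes in at least 1 set). The 19 libraries fell into 6 groups. CD11b-positive myeloid cells came from mice of 4 months (young: 3 libraries labelled MT and 4 labelled WT) and of 18 months (old: 3 MT and 3 WT), and LK cells, the lineage-negative, c-Kit-positive fraction of progenitor and stem cells, came from mice of 18 months (3 MT and 3 WT). MT stands for mice with a mutant form of Asxl1, which encodes a Polycomb-associated chromatin protein and is a recurrent mutation target in myeloid neoplasms, and WT for wild type. The labels do not give the allele, its promoter or driver, the sex of the mice, or whether replicates are separate animals, so p-values measure the spread between these libraries, which may in part be technical.

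Before S phase the origin recognition complex, with Cdc6 and Cdt1, loads the MCM complex onto DNA, a ring built from the products of Mcm2 to Mcm7 that serves as the core of the replicative helicase. At the start of S phase the loaded ring is activated by joining Cdc45 and the GINS complex, of which Gins2 encodes a subunit. The product of Pcna is the sliding clamp that holds DNA polymerases on the template. Transcription of these genes is driven largely by E2F factors, which are released from RB proteins when cells commit to the cycle. In bone marrow, cycling cells sit mainly among progenitors and early myeloid precursors, while mature neutrophils have left the cycle.

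Depth ranged from 26251822 to 68260809 gene counts per library, and counts of the members from 236 (Gins2) to 41261 (Mcm6). The cell sets followed their labels. Itgam, which encodes CD11b, was at 1481 to 3465 CPM (counts scaled to a common library total) in the CD11b libraries and at 45.3 to 85.7 CPM in the LK libraries, and Kit was at 170 to 220.0 CPM in LK, 97.6 to 115 in young CD11b and 62.1 to 69.5 in old CD11b libraries. The level of Asxl1 overlapped between MT and WT in old CD11b cells, with a log2 fold change of -0.01 (edgeR adjusted p = 0.939), and in young CD11b cells, with -0.13 (edgeR adjusted p = 0.999), and was lower in MT in LK cells, with -0.28 (edgeR adjusted p = 0.0119). A gene count does not show the mutation itself, so these levels do not check the genotype labels. In each group of the old and LK sets, replicate 1 stood apart from replicates 2 and 3: the chi-square per degree of freedom between libraries was 2.92 to 6.39 for replicates 2 against 3 and 13.7 to 44.6 for pairs with replicate 1. Among young libraries, 5 of 7 had 48221 to 65185 Xist counts, while MT replicate 3 and WT replicate 4 instead had Ddx3y counts of 3022 and 2854, as did the LK and old libraries (2581 to 4388).

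Promoter windows of the members are shown first, because the members share a known class of regulator and differ in whether its letters are present. RefSeq (GRCm38.p6) gave a window of 250 bases before to 50 after the start site for 8 of the 10 members, and not for Mcm4 and Gins2. In all, 4 forms of the E2F motif were searched on both strands, namely TTTCCCGC, TTTGGCGC, TTTCGCGC and TTTGCCGC. Of the 8 members, 6 (75.0%) held at least 1 of them, against 704 of 27025 genes in the table (2.60%). The 250 bases before the start site of 5 members follow, 5′ to 3′ on the strand of the gene, with the matched letters in capitals. They lie at chr8:75109259-75109508 on the plus strand (Mcm5), chr1:128359706-128359955 on the minus strand (Mcm6), chr11:98907901-98908150 on the plus strand (Cdc6), chr6:88898781-88899030 on the minus strand (Mcm2) and chr2:132253181-132253430 on the minus strand (Pcna).
Mcm5: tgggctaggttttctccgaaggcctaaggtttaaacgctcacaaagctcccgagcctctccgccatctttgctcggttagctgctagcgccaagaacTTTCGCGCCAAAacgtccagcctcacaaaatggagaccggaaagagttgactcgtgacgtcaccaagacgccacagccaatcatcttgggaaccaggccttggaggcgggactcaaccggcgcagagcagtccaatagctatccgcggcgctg
Mcm6: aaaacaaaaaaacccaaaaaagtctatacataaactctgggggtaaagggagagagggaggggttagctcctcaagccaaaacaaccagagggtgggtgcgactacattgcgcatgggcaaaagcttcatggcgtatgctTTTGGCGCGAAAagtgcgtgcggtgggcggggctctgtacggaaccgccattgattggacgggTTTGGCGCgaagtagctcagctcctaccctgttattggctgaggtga
Cdc6: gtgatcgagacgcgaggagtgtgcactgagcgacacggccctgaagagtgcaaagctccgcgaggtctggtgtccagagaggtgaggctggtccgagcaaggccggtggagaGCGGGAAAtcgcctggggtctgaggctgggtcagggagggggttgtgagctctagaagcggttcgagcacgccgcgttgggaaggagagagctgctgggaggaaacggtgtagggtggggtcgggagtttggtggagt
Mcm2: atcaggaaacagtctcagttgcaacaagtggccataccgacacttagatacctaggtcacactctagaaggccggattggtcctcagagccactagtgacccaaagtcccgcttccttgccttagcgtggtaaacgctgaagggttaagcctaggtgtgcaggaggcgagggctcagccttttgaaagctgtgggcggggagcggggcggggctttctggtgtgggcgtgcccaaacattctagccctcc
Pcna: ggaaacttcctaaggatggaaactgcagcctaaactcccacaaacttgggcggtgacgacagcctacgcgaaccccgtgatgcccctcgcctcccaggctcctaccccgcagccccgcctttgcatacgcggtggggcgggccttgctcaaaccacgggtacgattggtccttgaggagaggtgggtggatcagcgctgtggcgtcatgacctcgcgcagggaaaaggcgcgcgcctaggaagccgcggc
In Mcm5 the capitals hold 2 matches on opposite strands that overlap, with first bases 153 and 149 bases before the start site. Mcm6 held 3 matches, of which those at 110 and 106 bases before the start overlap and the third lies at 47 bases before it. Cdc6 held 1 match, 138 bases before the start. Mcm3 held 2 matches, both in the bases after the start site, Mcm7 held 1 at 165 bases before and 1 after it, and Cdt1 held 1 after it. The windows of Mcm2 and Pcna held none of these letters, which says only that they are not in these windows. Of the other lists described here, the letters were in 7 of 12 E2F and RB regulators with a window, 7 of 20 replication fork genes and 1 of 14 G2 and mitosis genes. A match is a description of the letters and not a binding site.

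Levels set the members apart from each other in a similar order in every group. Per kilobase of exon, Pcna had the highest mean CPM of the 10 in all 6 groups (294 in LK WT, 118 in young WT and 110.1 in old WT), and Gins2 the lowest (11.4, 2.48 and 2.33), with Cdc6 next to lowest (29.4, 8.37 and 5.03). The 6 MCM genes lay close together, and the highest of them was 1.46 to 1.54 times the lowest per kilobase in young CD11b libraries, 1.92 to 2.13 times in old ones and 2.08 to 2.15 times in LK libraries. Their balance nevertheless differed by cell set. Mcm5 made up 23.5% to 25.0% of the MCM level per kilobase in old CD11b libraries, 19.3% to 20.2% in young ones and 18.2% to 19.2% in LK libraries. Mcm4 made up 10.4% to 10.7% in LK, 11.7% to 12.6% in old and 13.1% to 14.1% in young libraries, and Mcm7 made up 22.0% to 22.6%, 20.2% to 21.5% and 18.9% to 19.8%. These ranges do not overlap between the sets, but changes between the sets also varied with transcript length (Spearman -0.101 for LK against old and -0.248 for old against young CD11b cells in WT), and the part of that in the shares was not tested.

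**Figure D1:**
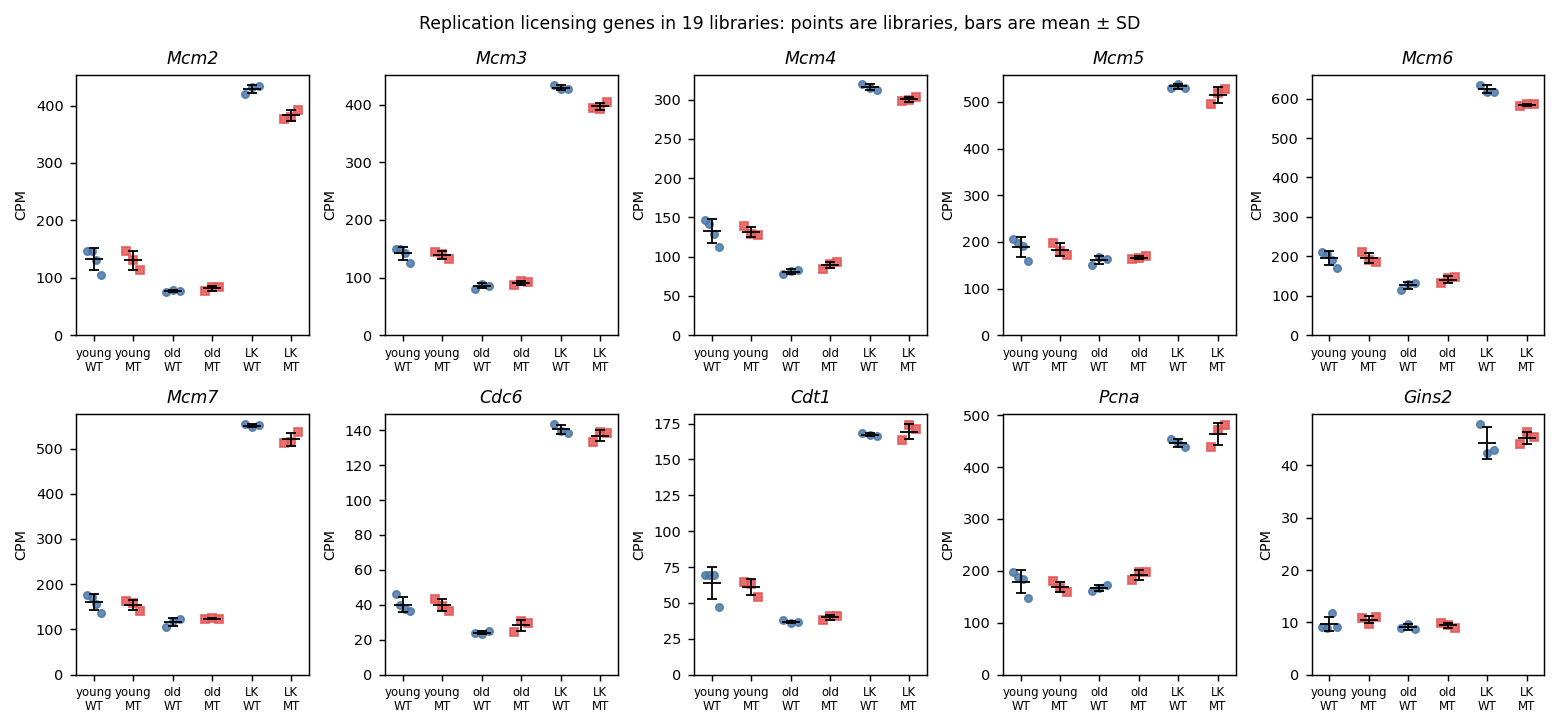
CPM of each licensing gene (y axis, linear from 0) in the 6 groups (x axis). Circles (WT) and squares (MT) are libraries, bars are the mean ± SD. For all 10 genes every LK library lies above every CD11b library, and for Mcm2 the LK libraries sit between 376 and 434 CPM, against 75.9 to 147 in CD11b libraries.

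The contrast between progenitors and myeloid cells sets LK against CD11b cells of the same age. At 18 months all 10 members were higher in LK than in CD11b cells, in WT and in MT libraries alike, and no LK library overlapped a CD11b library for any of them. How many of all genes separate in this way was not counted. In these contrasts 45.1% of 13710 genes (WT) and 45.9% of 13828 genes (MT) were called higher at an adjusted p under 0.05 (edgeR quasi-likelihood test, Benjamini-Hochberg adjustment over all genes tested). A further 41.7% and 41.9% were called lower (86.8% and 87.8% in either direction), so the count alone sets the members little apart, and the size of their change says more. The median log2 fold change of the members was 2.17 in WT and 1.98 in MT, against 0.08 and 0.10 over all genes tested. In bulk RNA, more cells that express a gene and more RNA of it per cell cannot be told apart.

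Among the loading factors, Cdc6 showed the largest of the members' changes. It was at 143, 139 and 139 CPM in LK WT libraries and at 23.9, 23.4 and 24.8 CPM in old CD11b WT libraries, a log2 fold change of 2.45 ± 0.05 (SE, n = 3 and 3, edgeR adjusted p = 1.03e-09). In MT libraries it was at 134, 139 and 138 CPM in LK and at 24.6, 30.6 and 29.7 CPM in CD11b cells, a log2 fold change of 2.17 ± 0.07. Cdt1, the loading partner that geminin restrains, was at 166 to 169 CPM in LK WT and 36.2 to 37.7 CPM in old CD11b WT libraries, a log2 fold change of 2.08 ± 0.05, with 1.99 ± 0.04 in MT. The helicase genes followed. Mcm2 was at 421, 432 and 434 CPM in LK WT and at 75.9, 78.4 and 76.6 CPM in old CD11b WT libraries, and its log2 fold change was 2.38 ± 0.05 in WT and 2.13 ± 0.05 in MT. Mcm3, Mcm6 and Mcm7 rose by log2 changes of 2.23, 2.21 and 2.15 in WT, and Mcm4 and Mcm5 by 1.87 and 1.63. Gins2, the helicase activator subunit, was low in both cell types, at 42.4 to 47.9 CPM in LK WT and 8.72 to 9.72 CPM in old CD11b WT libraries, yet its log2 change of 2.19 ± 0.07 was as large as that of the MCM genes.

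Pcna rose least of the 10. It was at 438 to 454 CPM in LK WT and 161 to 172 CPM in old CD11b WT libraries, a log2 fold change of 1.32 ± 0.05 (edgeR adjusted p = 1.99e-08), and 1.17 ± 0.05 in MT. Per kilobase, Pcna was 3.41 to 3.82 times the mean of the MCM genes in old CD11b libraries, 2.43 to 2.66 times in young ones and 2.07 to 2.38 times in LK libraries. The value for Pcna moved with a correction for transcript length and GC content, to 0.87 in WT and 0.53 in MT, and stayed past the threshold. Library totals without TMM factors (a scaling that assumes that most genes do not change) raised the median over all genes to 0.81 in WT and 0.76 in MT. Relative to that median the members were at 2.09 in both scalings in WT and at 1.88 (TMM) and 1.89 (totals) in MT. A change of scaling shifts all genes by nearly the same amount, so this likeness was fixed in advance.

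**Figure D2:**
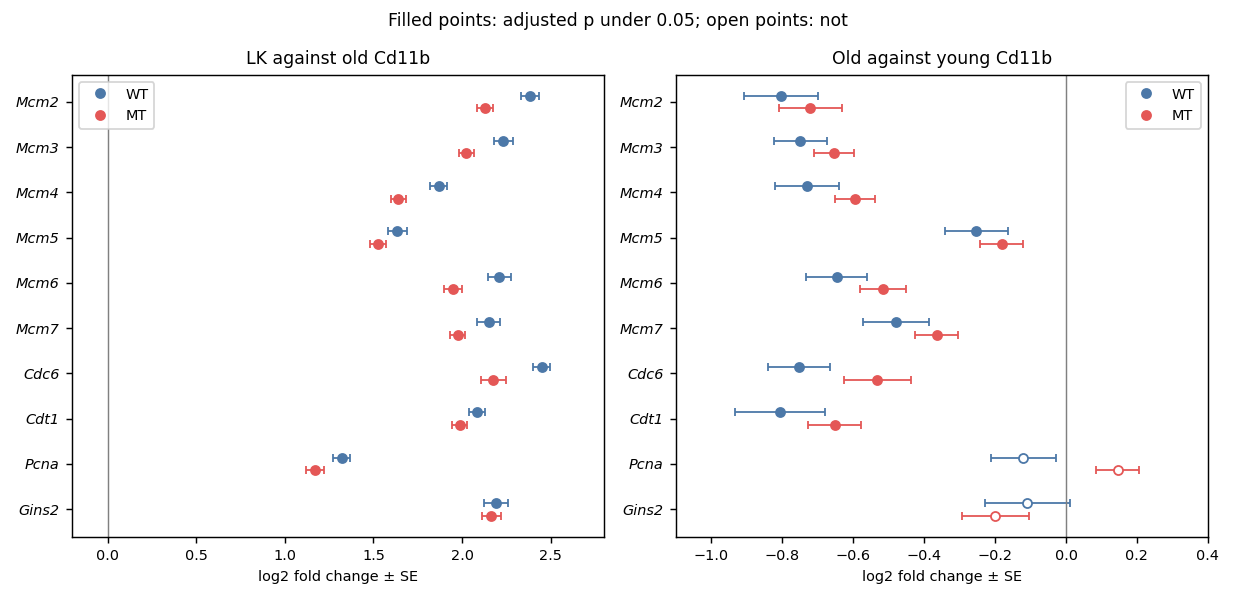
Log2 fold change ± SE (x axis) of each licensing gene (y axis) for LK against old CD11b cells (left) and old against young CD11b cells (right), in WT (blue) and MT (red) libraries. Filled points passed an adjusted p of 0.05. Pcna rises least in the left panel (1.32 in WT), and in the right panel Pcna and Gins2 are the members with open points.

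The genes around the members differed by list. All 6 subunits of the origin recognition complex were called higher in LK cells in WT (median log2 1.92), with Orc1 at 3.47, Orc2 at 2.90 and Orc5 at 2.21, as were all 11 origin firing genes tested (median 0.78; the helicase Recql4 3.02, Gins1 2.19, Mcm10 1.76), all 24 replication fork genes (median 1.69; the polymerase subunits Pold2 2.97 and Pola2 2.38), all 8 nucleotide supply genes (median 1.90; the CTP synthase gene Ctps 3.13, Dut 2.50) and all 8 checkpoint and fork repair genes (median 1.43; the kinase gene Chek1 1.95). In MT the counts were 5 of 6, 10 of 11, 23 of 24, 8 of 8 and 8 of 8. The licensing inhibitor Gmnn (geminin) rose by 1.27 in WT, while Mcmbp, which unloads and stores MCM proteins, fell by 0.58. The E2F and RB regulators were mixed, with 7 of 16 called higher and 7 lower in WT (median 0.10; Ccne1 2.72, E2f6 2.17, E2f4 1.92, E2f2 -2.18) and 7 higher and 9 lower in MT (median -0.32). Medians of the G2 and mitosis genes were nearer 0 than those of the licensing genes. Of 16, 11 were called higher and 2 lower in WT and 10 higher and 6 lower in MT, with medians of 0.36 and 0.33, and Ccnb1 at 0.79, Aurkb at 0.61 and Ccna2 at 0.57 led in WT. The inhibitors of cyclin-dependent kinases and antiproliferative genes went the other way, with a median of -2.44 in WT, where Btg1 was at -3.85, Cdkn2d at -3.44, Btg2 at -2.91 and Cdkn1b at -2.44, and 5 of 7 called lower.

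Summed levels by library set licensing against mitosis genes. The 10 licensing genes summed to 838 to 986 CPM in old CD11b libraries, 1049 to 1358 in young ones and 3437 to 3708 in LK libraries. The 16 G2 and mitosis genes summed to 3207 to 3547 CPM in old, 3351 to 3643 in young and 3244 to 3926 in LK libraries. The ratio of the sums was therefore 0.253 to 0.286 in old CD11b, 0.305 to 0.387 in young CD11b and 0.933 to 1.09 in LK libraries, with no overlap between the sets. Marker genes of cell types moved with this contrast too. All 10 stem and progenitor genes and all 8 erythroid genes tested were called higher in LK cells in both genotypes, with medians of 3.53 and 5.50 in WT. The 7 erythroid genes listed in all sets summed to 2126 to 2534 CPM in LK and 69.0 to 126 CPM in old CD11b libraries. For primary granule genes, which mark promyelocytes, and mature neutrophil genes the sums were 12191 to 17364 and 461 to 3781 CPM in LK libraries and 1769 to 2284 and 156710 to 189360 CPM in old CD11b libraries. Of 6 primary granule genes tested, 5 were called higher and 1 lower in LK cells in each genotype. The exception was Cebpe, named after its values were seen, at 39.3 to 54.0 CPM in LK WT and 491 to 534 CPM in old CD11b WT libraries. The part of these marker genes in the difference was not tested.

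**Figure D3:**
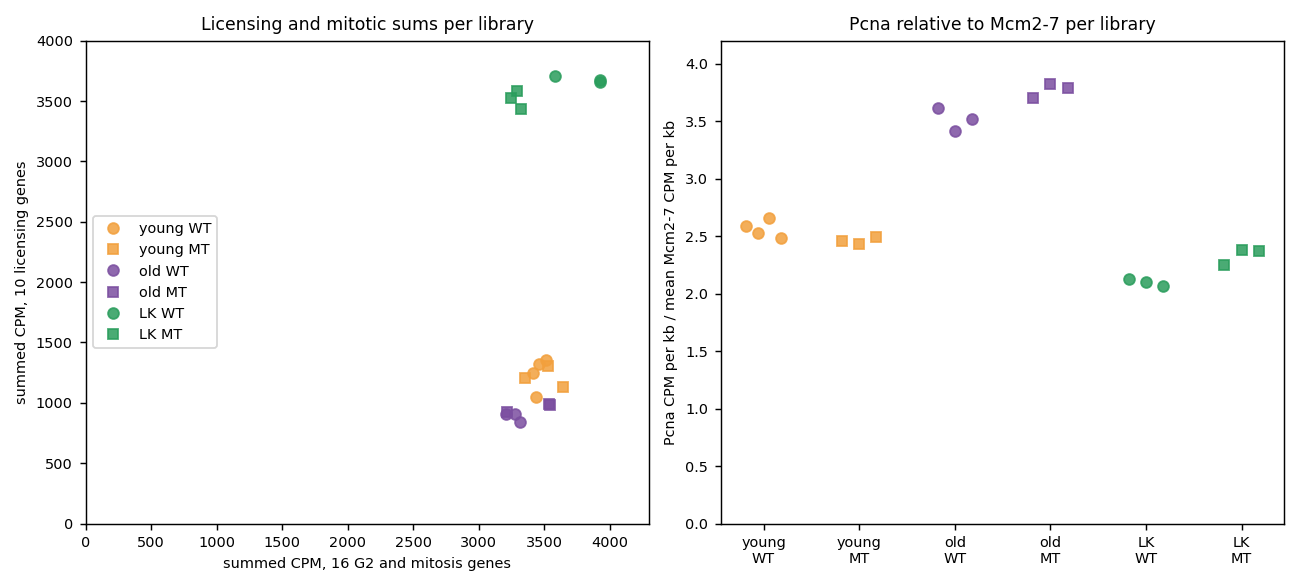
Left: summed CPM of the 10 licensing genes (y axis) against that of 16 G2 and mitosis genes (x axis), 1 point per library, circles WT and squares MT. Right: Pcna per kilobase over the mean of Mcm2 to Mcm7 per kilobase (y axis) by group. LK libraries stand at 3437 to 3708 CPM of licensing genes at mitotic sums that overlap those of CD11b cells, and old CD11b libraries have the highest ratios of Pcna to MCM genes (3.41 to 3.82).

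Within CD11b cells, the second question was whether the licensing genes differed with age. All 6 MCM genes, Cdc6 and Cdt1 were lower at 18 than at 4 months, in WT and in MT, so that 8 of 10 members were called lower in each genotype; 36.9% of 13719 genes (WT) and 36.5% of 13584 genes (MT) were called lower in these contrasts, 36.1% and 35.2% higher, and 73.1% and 71.7% in either direction. The median log2 change of the members was -0.69 in WT and -0.52 in MT, against -0.02 over all genes in both. Pcna and Gins2 did not pass the test in either genotype. The age contrast compares sets of libraries whose files list different genes and, by Xist and Ddx3y, young libraries mostly of female and old libraries of male cells, so that age and set cannot be told apart and sex only in part.

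Mcm2 was at 146, 147, 132 and 105 CPM in young WT and at 75.9, 78.4 and 76.6 CPM in old WT libraries, a log2 change of -0.80 ± 0.11 (edgeR adjusted p = 5.09e-05). In MT it was at 147, 131 and 114 CPM in young and at 76.5, 84.1 and 84.0 CPM in old libraries, a change of -0.72 ± 0.09. The old libraries were all below the young ones. Cdt1 fell as far in WT, by a log2 change of -0.81 ± 0.13 from 69.2, 69.2, 69.3 and 46.9 CPM to 37.7, 36.2 and 36.7 CPM, and by -0.65 ± 0.07 in MT. Cdc6 changed by -0.75 ± 0.09 in WT, from 36.6 to 46.4 CPM in young to 23.4 to 24.8 CPM in old libraries, and by -0.53 ± 0.09 in MT. Mcm3, Mcm4 and Mcm6 changed by -0.75, -0.73 and -0.65 in WT and by -0.65, -0.60 and -0.52 in MT. Mcm7 changed less, by -0.48 ± 0.09 and -0.37 ± 0.06, and Mcm5 least, by -0.25 ± 0.09 (adjusted p = 0.0245) and -0.18 ± 0.06 (adjusted p = 0.0231). Mcm5 was at 159 to 207 CPM in young and 151 to 167 CPM in old WT libraries, and was the only called member whose WT groups overlapped. Its call was lost without any 1 of young WT replicates 1, 2 and 3 and old WT replicates 1 and 3 (-0.26 to -0.21), and in MT without young replicate 1 or any 1 old replicate (-0.19 to -0.12).

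Pcna and Gins2 gave no stable call. Pcna was at 197, 188, 184 and 147 CPM in young WT and 161, 167 and 172 CPM in old WT libraries, a log2 change of -0.12 ± 0.09 (edgeR adjusted p = 0.258). In MT libraries it was at 180.3, 166 and 160 CPM in young and 182, 197 and 197 CPM in old cells, and all old libraries were above the young ones, with a change of 0.15 ± 0.06 (edgeR adjusted p = 0.056). Gins2 was at 8.84 to 11.7 CPM in young WT and 8.72 to 9.72 CPM in old WT libraries, a change of -0.11 ± 0.12 (edgeR adjusted p = 0.429), and in MT -0.20 ± 0.09 (edgeR adjusted p = 0.0839). The direction for Pcna turned with the processing. In MT it was called higher with RLE factors and by DESeq2 (0.16 in both), without a low-count filter and in the fit of all 19 libraries. It was also called higher without young MT replicate 1 and without old MT replicate 1. With the length and GC trend removed it was called lower (-0.23), and with library totals alone it was at -0.13. In WT Pcna was called lower without young replicate 4 (-0.20), with the length and GC trend removed (-0.53) and with library totals alone (-0.38). Gins2 was called lower with library totals alone (-0.37 in WT, -0.47 in MT) and, in MT, with the trend removed (-0.29). Library totals shifted the median over all genes to -0.28 in WT and -0.29 in MT. Relative to it the members' medians were -0.67 and -0.50, values that a change of scaling by itself barely moves.

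The size of these differences depended on the young libraries used. Young WT replicate 4 and young MT replicate 3, the young libraries with Ddx3y, had the lowest sums of the 10 members in their groups (1049 CPM against 1247 to 1358, and 1134 against 1209 and 1302). Set against these libraries alone, the old WT libraries had 6 members called lower, with a median of -0.39, and Mcm5 at 0.02, Pcna at 0.18 and Gins2 at 0.01; in MT 7 members were called lower, with a median of -0.43 over all 10, and Pcna was called higher. Each of these fits rests on 1 young library, which was assumed to vary like the old ones, so the calls have no measured spread on the young side. A term for sex-linked expression gave medians of -0.41 in WT and -0.43 in MT. All old libraries had Ddx3y, so this term sets them against the same young library in each genotype and is not a separate result.

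The other genes of the cycle did not fall as a whole with age. Of 24 replication fork genes, 14 were called lower and 2 higher in WT (median -0.28), led by the polymerase genes Pole (-1.27) and Pola1 (-1.18), and 7 of 8 checkpoint and fork repair genes were called lower, with Brca2 at -1.52 and Atr at -1.25. In the origin recognition complex, 4 of 6 were called lower, with Orc1 at -1.37. Dtl, which directs Cdt1 to degradation, changed by -1.19. Origin firing genes were mixed, with 3 called lower and 4 higher, and Mcm10 at -0.68 and the kinase gene Cdc7 at 0.44. G2 and mitosis genes had a median of 0.09, with 6 called higher (Ccnb2 0.55, Ccnb1 0.50) and 3 lower (Mki67 -0.29). Of the 7 inhibitors and antiproliferative genes, 3 were called higher (Cdkn1c 1.49, Cdkn2d 1.42, Cdkn2c 0.22) and 2 lower (Cdkn1a -0.76, Btg2 -0.49). Of the E2F and RB regulators, 4 of 16 were called higher and 7 lower. In MT the calls were 11 fork genes lower and 1 higher, 7 checkpoint genes lower and 1 higher, 3 origin recognition genes lower, 4 origin firing genes lower and 4 higher, and 7 G2 and mitosis genes higher and 2 lower.

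Markers of cell types moved strongly with age. In WT, 9 of 10 stem and progenitor genes were called lower in old cells (their sum fell from 409 to 517 CPM in young to 175 to 177 CPM in old libraries), and 4 of 6 primary granule genes tested were called lower and 1 higher (Cebpe, named after its values were seen, at 172 to 206 CPM in young and 491 to 534 CPM in old libraries), with sums over the list of 3995 to 7041 and 2107 to 2284 CPM. All 10 mature neutrophil genes were called higher, with sums of 49109 to 62107 CPM in young and 156710 to 189360 CPM in old WT libraries. All 7 erythroid genes tested (median -2.92), all 5 mast and basophil genes, 7 of 8 B lineage genes and all 6 T and NK genes tested were called lower. Cd34 was at 24.6 to 35.1 CPM in young and 0.972 to 1.48 CPM in old WT libraries. Their part in the lower licensing genes was not tested.

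The mutation was compared with wild type in each set. In young CD11b cells no member was called, and none of 13755 genes was (0% called; edgeR, with 0 members and 444 genes at an unadjusted p under 0.05; DESeq2 called 19 genes and 0 members). Log2 fold changes of the members ran from -0.09 ± 0.10 (Pcna) to 0.12 ± 0.12 (Gins2), with a median of -0.03, and every member's groups overlapped. Mcm6, the MCM gene with the highest mean CPM in these young libraries, was at 211, 190.3 and 187 CPM in MT and 211, 206, 191 and 171 CPM in WT libraries.

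In old CD11b cells no member was called either, at a background of 0.336% of 13398 genes (0.127% higher, 0.209% lower). All 10 log2 changes were above 0, with a median of 0.09 against 0.00 over all genes. By edgeR 4 of the 10 members had an unadjusted p under 0.05, as had 2230 of the 13398 genes. Pcna was at 182, 197 and 197 CPM in MT and 161, 167 and 172 CPM in WT libraries, without overlap, a log2 change of 0.20 ± 0.05 (edgeR unadjusted p = 0.00266, edgeR adjusted p = 0.10). DESeq2 called Pcna, and so did edgeR without WT replicate 1, while edgeR without MT replicate 1 called Cdc6 (1 member in each). Cdc6 had the largest estimate, at 0.23 ± 0.08, with MT libraries at 24.6, 30.6 and 29.7 CPM and WT libraries at 23.9, 23.4 and 24.8 CPM, which overlap. Mcm4 (84.9, 91.2 and 92.8 CPM in MT, 77.5, 81.7 and 83.2 in WT) and Cdt1 (38.0, 40.9 and 40.6 in MT, 37.7, 36.2 and 36.7 in WT) did not overlap and were not called, with adjusted p of 0.203 and 0.316 by edgeR. How many of all genes have groups that do not overlap was not counted. No marker gene of the lists named here was called in this comparison. Primary granule sums were lower in the MT libraries (1769 to 1934 against 2107 to 2284 CPM), and all 10 mature neutrophil genes had estimates below 0 (median -0.10). Of 8 erythroid genes, 7 had estimates above 0 (median 0.88), as had all 8 B lineage genes (median 0.71). The B lineage sums were 127, 50.1 and 50.7 CPM in MT replicates 1, 2 and 3 and 39.8 to 63.7 CPM in WT libraries. Only MT replicate 1 thus lay above the WT range. Over the 7 erythroid genes listed in all sets, sums were 72.7, 126 and 124 CPM in MT replicates 1, 2 and 3. These sums were 69.0 to 76.3 CPM in WT libraries. Among the MT libraries every member except Gins2 was lowest in replicate 1 too. The 10 members summed to 920, 982 and 986 CPM in MT replicates 1, 2 and 3. The erythroid gene left out, Hba-a1, was at 10.3 to 53.2 CPM in MT and 26.5 to 77.2 CPM in WT libraries. With it the sums were 82.9 to 177 CPM in MT and 102.8 to 149.6 CPM in WT libraries. The part of these genes was not tested.

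In LK cells 4 of the 6 MCM genes were called lower in MT, in the fit reported and not in several alternatives. Mcm2, Mcm3, Mcm4 and Mcm6 were the genes called, which is 4 of 10 members at a background of 15.9% of 14113 genes called lower and 29.8% called in either direction (13.9% higher). In all 6 MCM genes every MT library lay below every WT library, but how many of all genes separate in this way was not counted. The changes were small, with a median over the 10 members of -0.09 against 0.02 over all genes. Cdc6, Cdt1, Pcna and Gins2 overlapped between the genotypes and were not called.

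Mcm2 was at 376, 380.0 and 393 CPM in MT and 421, 432 and 434 CPM in WT libraries, a log2 change of -0.19 ± 0.04 (n = 3 and 3, edgeR adjusted p = 0.0118). Mcm3 was at 395, 393 and 405 CPM in MT and 435, 427 and 427 CPM in WT libraries, a change of -0.14 ± 0.03 (edgeR adjusted p = 0.0197). Mcm6 was at 581, 585 and 586 CPM in MT and 635, 618 and 618 CPM in WT libraries, a change of -0.12 ± 0.04 (edgeR adjusted p = 0.0323). All MT libraries were below the WT libraries in these genes, by a margin about as large as the spread within a group or larger. Mcm4 was at 298, 299 and 303 CPM in MT and 320, 314 and 312 CPM in WT libraries, a change of -0.10 ± 0.03 that was just inside the threshold (edgeR adjusted p = 0.0491), and Mcm7, at 511, 514 and 536 CPM in MT and 554, 547 and 551 CPM in WT libraries, was just outside it (-0.11 ± 0.04, edgeR adjusted p = 0.0517). Mcm5 was at 496, 520 and 528 CPM in MT and 530, 539 and 530 CPM in WT libraries (-0.08 ± 0.04, edgeR adjusted p = 0.135). Cdc6 changed by -0.07 ± 0.03, Cdt1 by -0.01 ± 0.03, Pcna by 0.03 ± 0.04 and Gins2 by 0.00 ± 0.05. Pcna was at 439, 472 and 480 CPM in MT and 454, 446 and 438 CPM in WT libraries, and its ratio to the MCM genes per kilobase was 2.25 to 2.38 in MT and 2.07 to 2.13 in WT libraries.

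**Figure D4:**
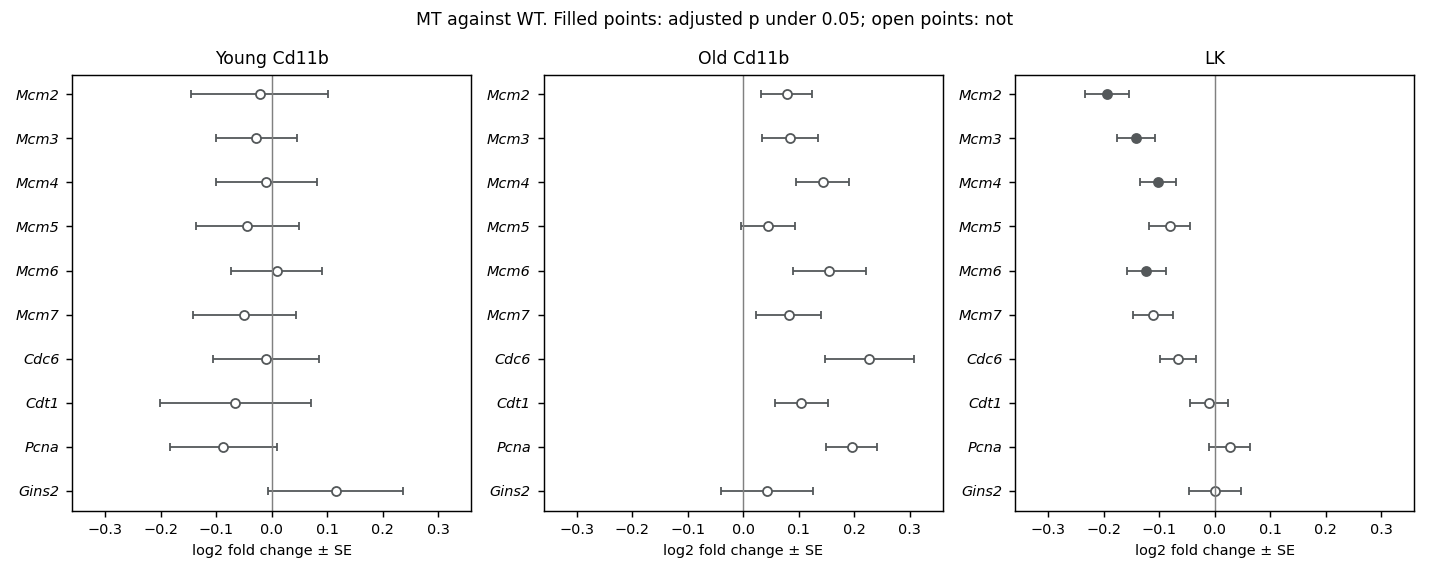
Log2 fold change ± SE (x axis) of MT against WT for each licensing gene (y axis) in young CD11b, old CD11b and LK cells. Filled points passed an adjusted p of 0.05: none in the CD11b panels, and Mcm2, Mcm3, Mcm4 and Mcm6 in LK cells, at -0.19 to -0.10.

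These calls rested on few libraries. None of the 10 members was called without MT replicate 2, without MT replicate 3, without WT replicate 2 or without WT replicate 3, whereas the same 4 were called without MT replicate 1 and 7 without WT replicate 1. Where replicates 2 and 3, the close pair in each group, were summed into 1 library, none was called, nor in a fit of all 19 libraries. The estimates moved less, and the median of the members was -0.12 to -0.09 over the fits that left out 1 library. LK MT replicates 2 and 3 also had mature neutrophil sums of 3781 and 3664 CPM, against 1077 in MT replicate 1 and 977, 485 and 461 in WT libraries. Without these MT libraries, with MT replicate 1 assumed to vary like the WT libraries, the changes were -0.19 (Mcm2), -0.12 (Mcm3), -0.08 (Mcm4) and -0.10 (Mcm6), with no member called, and the summed MCM level was 2657 CPM in MT replicate 1 against 2873 to 2894 CPM in WT. All 6 primary granule genes tested were called higher in MT (sums of 13971 to 17364 against 12191 to 13871 CPM), and 4 of 7 monocyte genes were called lower and 1 higher. Of 8 erythroid genes tested, all 8 had estimates below 0 and 2 were called lower. The 7 of them listed in all sets summed to 2126 to 2222 CPM in MT and 2460 to 2534 CPM in WT libraries, without overlap, the direction of the MCM genes. The part of these marker genes in the lower MCM genes was not tested. Changes in this comparison also fell with transcript length over 12556 genes (Spearman -0.464). With a trend on length and GC content removed, 4 members were called lower, namely Mcm2, Mcm3, Mcm7 and Pcna, with Pcna at -0.13.

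The lists around the members had more called lower than higher in LK MT cells, with 2 exceptions. Of the G2 and mitosis genes, 7 of 16 were called lower (Mki67 -0.42, Top2a -0.39, Kif11 -0.31) and 1 higher (Birc5 0.19), with a median of -0.11, close to that of the members. Of the checkpoint and fork repair genes, 5 of 8 were called lower (Fancd2 -0.54, Atr -0.43, Brca1 -0.32), with a median of -0.26. Of the fork genes, 7 of 24 were called lower (Pole -0.56, Clspn -0.36) and 3 higher, and 2 of 6 origin recognition genes were called lower (Orc1 -0.33, Orc2 -0.18). Of the E2F and RB regulators, 7 of 16 were called lower, among them both activators of the cycle and inhibitors: Rb1 -0.40, Rbl1 -0.29 and Tfdp1 -0.18. The exceptions were nucleotide supply, with 3 called higher (Dctpp1 0.18, Dut 0.16, Tyms 0.14) and 1 lower (Rrm1 -0.21), and the antiproliferative genes and inhibitors, with 3 of 7 called higher (Btg2 0.35, Btg1 0.34, Cdkn2d 0.20). Many of the genes with large changes have long transcripts, and the part of the length trend in these counts was not tested.

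**Figure D5:**
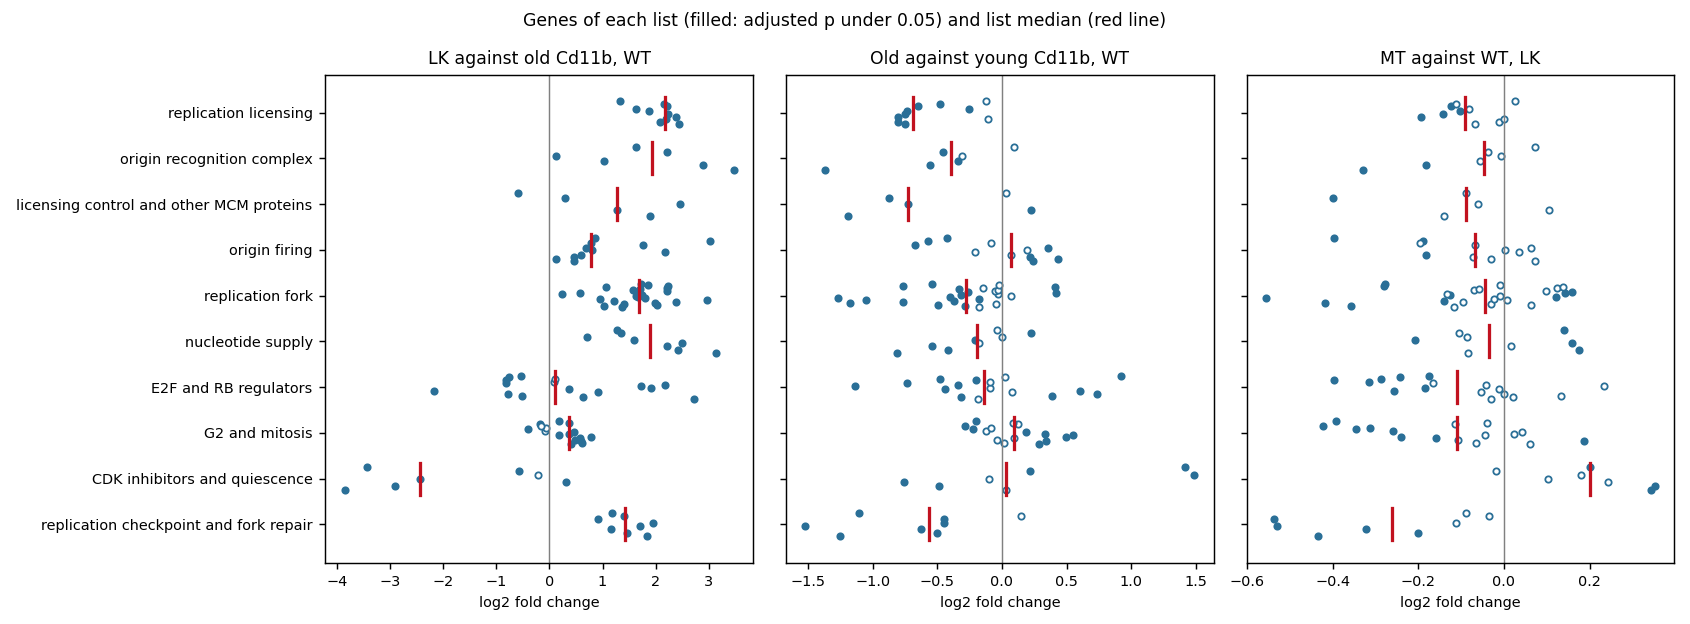
Log2 fold change (x axis) of each gene in 10 lists (y axis) for LK against old CD11b cells in WT, old against young CD11b cells in WT, and MT against WT in LK cells; filled points passed an adjusted p of 0.05 and red lines are list medians. In the left panel the licensing median is 2.17 and the G2 and mitosis median 0.36, and in the middle panel they are -0.69 and 0.09.

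Changes between MT and WT in LK cells were set against those in old CD11b cells by an interaction term. This interaction was below 0 for all 10 members, with a median of -0.22 against 0.01 over all genes, and was called for 5 of them at a background of 12% of 13996 genes called lower (8.79% higher, 20.7% in either direction). These were Cdc6 (-0.30 ± 0.09, edgeR adjusted p = 0.039), Mcm6 (-0.29 ± 0.08, edgeR adjusted p = 0.0282), Mcm2 (-0.28 ± 0.06, edgeR adjusted p = 0.0135), Mcm4 (-0.25 ± 0.06, edgeR adjusted p = 0.0151) and Mcm3 (-0.23 ± 0.06, edgeR adjusted p = 0.0226). For Mcm2 the MT against WT change was 0.08 in old CD11b and -0.19 in LK cells, and for Cdc6 they were 0.23 and -0.07, neither of which was called. None was called without LK WT replicate 2 or without LK WT replicate 3, and only Mcm2 without LK MT replicate 2. Without both LK MT replicates 2 and 3 none was called, at a median of -0.21. Within CD11b cells, the interaction between genotype and age was called for no member, at a background of 0.0214% (3 of 14024 genes). At an unadjusted p under 0.05 there was 1 of the 10 members, Pcna, and 1035 of the 14024 genes. Pcna was at 0.28 ± 0.12 (edgeR unadjusted p = 0.0334, edgeR adjusted p = 0.628), and no member was called by DESeq2.

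Within cell sets most pairs of members were positively correlated, with Gins2 apart over the 19 libraries together. With log2(CPM + 0.5) centred within each of the 3 sets, the median Pearson r over the 45 pairs of members was 0.79 across the 19 libraries (-0.15 to 0.95; 40 pairs above 0), given as a description, since the libraries share normalization and composition. It was 0.92 in young, 0.81 in old and 0.59 in LK libraries, where 31 of 45 pairs were above 0. For Gins2, r with the other 9 members across the 19 libraries was between -0.15 and 0.12. In LK libraries alone its r was 0.491 with Cdc6, 0.561 with Cdt1 and 0.594 with Pcna, and -0.35 to 0.0292 with the MCM genes. In LK libraries Pcna had r of -0.43 to -0.20 with Mcm2, Mcm3, Mcm4, Mcm6 and Mcm7, and Cdt1 had r of -0.25 to -0.11 with the same genes. A mean CPM of at least 5 in every set was reached by 8545 genes, the members included. Among those outside the members, the genes whose levels followed the mean of the members most closely were Atad3a (r = 0.948), Hn1l (0.945), Prdx3 (0.928), Kat2a (0.927) and Myb (0.923), followed by Noa1, Nomo1, Prpf19, Fntb and Shmt2 (0.907 to 0.919). Myb, a transcription factor of progenitors, is the gene among these 10 that is also on the list of stem and progenitor markers. For Prdx3, r was 0.961 in young and 0.971 in old but -0.246 in LK libraries, while for Atad3a it was 0.963, 0.964 and 0.885.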

How the data were processed

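Total RNA of freshly isolated bone-marrow cells was sequenced from strand-keeping (directional) libraries, per the labels' protocols. For each library the authors deposited counts, as whole numbers by gene symbol. STAR, HTSeq and DESeq2 and the build mm10 are named in the submitters' processing notes, without versions or settings; whether counting used strand is not given in the sources used here. The counts of transposable elements were not used here. Each set lists its own genes, and comparisons across sets used genes listed in both.

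Counts were tested with edgeR 4.0.16 (R 4.3.3; filterByExpr, TMM factors, robust quasi-likelihood fit, only the groups compared) in 9 comparisons, with Benjamini-Hochberg adjustment over all genes tested and a threshold of 0.05. Standard errors of log2 fold changes were taken as |log2 fold change| over the root of F. CPM were scaled with TMM factors over the 19 libraries (0.807 to 1.29) on 14246 genes. CPM per kilobase used the union of a gene's exons (GENCODE, GRCm38). On simulated counts for MT against WT in LK cells (14113 genes, 200 of them changed), 73.1% of genes changed by a log2 of 0.5 were called. Alternatives were RLE factors, no filter, DESeq2 1.42.0, a replicate block, a fit of all libraries, replicates 2 and 3 summed, a trend on length and GC removed, a sex term and leaving out each library. Library totals alone, libraries of 1 sex and leaving out LK MT replicates 2 and 3 were added after the data were seen. All 10 members are named; genes of other lists are examples in order of adjusted p. The members, lists and alternatives were chosen with earlier results of these data known. No entry was listed for Kat7 and Ticrr, which were not analysed here.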

Additional observations from a re-analysis of the deposited data

Results flagged for a closer look

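Among the 4 young WT libraries of CD11b cells, 1 library lay far from the others for 2 of the 10 genes; chance gives such a gap in about 1 of 20 groups. Cdt1 was lowest in WT replicate 4, at 46.9 CPM, against 69.2 to 69.3 CPM in the other 3. Gins2 was highest in WT replicate 3, at 11.7 CPM, against 8.84 to 9.06 CPM. WT replicate 4 was also the young WT library with Ddx3y counts (2854) and with the lowest primary granule sum (3995 CPM), and the part of either was not tested.

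The change between MT and WT differed between LK and old CD11b cells, by the interaction term of edgeR's quasi-likelihood fit, for 5 genes: -0.28 for Mcm2, -0.23 for Mcm3, -0.25 for Mcm4, -0.29 for Mcm6 and -0.30 for Cdc6 on the log2 scale. Primary granule genes moved the opposite way in the same interaction, with 6 of 6 tested called above 0 and a median of 0.73. Erythroid genes moved the same way as the members, with 7 of 8 below 0, 4 of them called and a median of -1.097. The part of either was not tested.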

How the results depend on the processing

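Every member stayed called higher in LK than in old CD11b cells in all alternatives, in both genotypes, and Mcm2, Mcm3, Mcm4, Mcm6, Cdc6 and Cdt1 stayed called lower in old than in young cells in all alternatives, in both genotypes. Calls of the mutation's effect depended on the processing, and the cause was not tested except where stated. In LK cells 4 members were called in the fit reported, 0 with the replicate block, in the fit of all 19 libraries, with replicates 2 and 3 summed (fewer libraries) and without LK MT replicates 2 and 3 (fewer libraries), 7 with library totals alone, and 0 to 7 when 1 library was left out. For the interaction with cell type 5 members were called, 0 in the same 4 alternatives, 9 with library totals alone and 0 to 6 when 1 library was left out. In old CD11b cells 0 were called, 1 by DESeq2 and 0 to 1 when 1 library was left out. The labels do not say whether replicate numbers pair the samples. Correlations of deviations for equal numbers in MT and WT were 0.49, 0.162 and -0.215 in young cells. They were -0.124, 0.147 and -0.0718 in old and -0.474, -0.329 and -0.245 in LK cells. Why the block changed the calls was not tested. In the age contrast in WT the block, which leaves out young WT replicate 4, added a call of Pcna (-0.20). Leaving out that library without a block added the same call.

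Directions changed where estimates were near 0. In young MT against WT the log2 fold change of Mcm6 was -0.049 with the replicate block, which leaves out WT replicate 4. Mcm6 was at -0.014 in libraries with Xist only, where Cdc6 was at 0.0085. With the sex term Mcm2 was at 0.013, Mcm4 at 0.012 and Cdc6 at 0.0044, and with library totals alone Mcm2 was at 0.024, Mcm3 at 0.015, Mcm4 at 0.034, Mcm5 at 9.1e-05 and Cdc6 at 0.033. Leaving out 1 library gave ranges of -0.12 to 0.066 for Mcm2, -0.080 to 0.012 for Mcm3, -0.081 to 0.051 for Mcm4, -0.12 to 0.0084 for Mcm5, -0.048 to 0.056 for Mcm6, -0.12 to 0.011 for Mcm7, -0.074 to 0.075 for Cdc6 and -0.19 to 0.0098 for Cdt1. In LK cells Gins2 was at -0.0051 with RLE factors, -0.0025 without a filter, -0.0052 by DESeq2, -0.021 with replicates 2 and 3 summed, -0.034 with totals alone and -0.013 without MT replicates 2 and 3, and from -0.039 to 0.023 when 1 library was left out. Cdt1 was at 0.018 in the fit of all libraries and from -0.041 to 0.00048 when 1 library was left out. With the length and GC trend removed Cdc6 was at 0.038 and Pcna at -0.13, and Pcna was at -0.0085 with totals alone and -0.023 without MT replicates 2 and 3. In the age contrast Pcna was at 0.16 (sex term) and 0.18 (Ddx3y libraries only) in WT, with Mcm5 at 0.015 and Gins2 at 0.0076 in the latter, and at -0.23 (trend removed) and -0.13 (totals alone) in MT. For the interaction with cell type Gins2 ran from -0.094 to 0.028 when 1 library was left out.

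The members had at least 236 counts in every library, and how far depth or the number of libraries limits the calls was not tested. In the simulated LK comparison, where 200 of 14113 genes were changed, no gene changed by a log2 of 0.15 was called. In the data 29.8% of genes were called, and the adjustment is less strict where many genes change. The simulated share therefore does not carry over to the calls of the members in LK cells.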
